A study of Mus musculus with 48 samples.

Results

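The peaks of 3 histone modifications were set against the amount of RNA from each gene in 1 cell population, the wild-type BCSP (bone, cartilage and stromal progenitors). The members were every sample of that population and genotype with a processed file, 6 of 48 samples in the series: 2 RNA libraries, 1 H3K4me3 peak list, 1 H3K4me1 peak list and 2 H3K27ac peak lists. The cells had been sorted from the limbs of postnatal day 3 C57BL/6 mice that carried floxed Ptip alleles (Ptipf/f) and no Cre, which the labels call WT. The WT libraries of 2 neighbouring populations, pBCSP (pre-BCSP) and SSC (skeletal stem cells), of the same genotype, strain, tissue and age, served for comparison. Cells of Ptipf/f;Col2a1-cre mice (KO) were not used, except that their RNA libraries entered 1 alternative fit. The labels do not say whether replicates came from separate mice or pools. Xist, the RNA of the inactive X chromosome, had 15.2, 12.9 and 9.34 CPM in replicate 1 of BCSP, pBCSP and SSC and 0 in replicate 2 of each, while the Y-linked Ddx3y was present in all 6 libraries, so the sex makeup of the 2 replicates differed and they were not 1 pool of cells divided. The p-values measure the spread between these samples.

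H3K4me3 is deposited around start sites by the SET1 and MLL1/2 family complexes and is a mark of promoters that are active or ready to be activated. H3K4me1 is deposited by the MLL3/4 complexes, to which PTIP belongs, and is found at enhancers and on the shoulders of active promoters. H3K27ac is added by p300 and CBP at active promoters and enhancers. Promoters rich in CG dinucleotides often carry H3K4me3 whether or not the gene is strongly transcribed.

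A gene was taken to carry a mark when a peak of the authors' list reached within 1 kb of its 5′ end by at least 1 base. For genes with several annotated start sites, or with no strand given, a peak at any of the ends searched counted. The marks of a combination can therefore lie at different ends of the same gene. Of 55487 listed genes, 25675 had at least 1 count in either WT BCSP RNA library and were ranked by the mean of their 2 CPM values (counts scaled to a library total of 1000000) into 10 deciles of equal size, decile 10 being the highest. The remaining 29812 genes had 0 counts in both libraries and formed a class of their own. A position in the genome was found for 21395 of the ranked and 16925 of the zero-count genes. CPM is not divided by transcript length, so the deciles rank genes by reads and not by molecules. The top decile, decile 10, held 2568 genes, 2550 of them with a position. Its lower edge fell between Emc6 at 73.3 CPM, inside, and Tmem185a at 73.2 CPM, outside.

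The following stretches of promoter, 150 bases each from 130 bases before the annotated start into the first transcribed bases, show the range of sequence and mark states found among the genes described here. They were chosen after the values had been seen. Sequences and start sites are those of RefSeq on GRCm38.p6, read 5′ to 3′ on the strand of the gene. Capitals mark the dinucleotide CG and the hexamer TATAAA, or TTTATA where that hexamer lies on the other strand. CG and TATAAA share no overlapping letters. Sparc (chr11:55420061-55420210, minus strand) and Col1a2 (chr6:4505488-4505637, plus strand) carried all 3 marks, and Ubb (chr11:62551041-62551190, plus) carried H3K4me3 and H3K27ac. Tnmd (chrX:133850878-133851027, plus) carried H3K4me3 alone and Ibsp (chr5:104299157-104299306, plus) H3K4me1 alone. Mmp13 (chr9:7272384-7272533, plus) and Acta1 (chr8:123894756-123894905, minus) were in the top decile without a peak. Pax2 (chr19:44746471-44746620, plus) had 0 counts and carried H3K4me3 and H3K4me1, and Alb (chr5:90460740-90460889, plus) had 0.10 and 0 CPM and no peak.
Sparc: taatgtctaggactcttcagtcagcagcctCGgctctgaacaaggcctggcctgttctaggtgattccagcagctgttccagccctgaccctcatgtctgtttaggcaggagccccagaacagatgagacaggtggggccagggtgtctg
Col1a2: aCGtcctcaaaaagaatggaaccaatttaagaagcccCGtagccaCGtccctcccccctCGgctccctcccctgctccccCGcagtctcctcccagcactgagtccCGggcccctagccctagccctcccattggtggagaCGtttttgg
Ubb: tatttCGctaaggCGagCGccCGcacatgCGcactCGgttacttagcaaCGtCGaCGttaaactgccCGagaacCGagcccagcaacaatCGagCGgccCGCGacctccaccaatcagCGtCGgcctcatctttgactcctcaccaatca
Tnmd: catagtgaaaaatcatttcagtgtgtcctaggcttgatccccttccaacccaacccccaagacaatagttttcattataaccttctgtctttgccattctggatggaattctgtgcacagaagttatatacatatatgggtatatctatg
Ibsp: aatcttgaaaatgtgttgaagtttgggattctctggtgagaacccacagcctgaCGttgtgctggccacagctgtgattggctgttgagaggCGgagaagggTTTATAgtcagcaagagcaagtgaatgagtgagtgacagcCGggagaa
Mmp13: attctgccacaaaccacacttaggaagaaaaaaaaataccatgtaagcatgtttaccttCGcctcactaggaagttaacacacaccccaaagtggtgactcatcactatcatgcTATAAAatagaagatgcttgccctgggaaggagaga
Acta1: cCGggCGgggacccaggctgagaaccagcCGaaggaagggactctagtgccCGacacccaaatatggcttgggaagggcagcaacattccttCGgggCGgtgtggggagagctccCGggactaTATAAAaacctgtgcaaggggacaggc
Pax2: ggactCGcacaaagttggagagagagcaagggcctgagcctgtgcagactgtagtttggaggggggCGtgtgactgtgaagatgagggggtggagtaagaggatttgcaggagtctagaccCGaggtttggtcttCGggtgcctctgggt
Alb: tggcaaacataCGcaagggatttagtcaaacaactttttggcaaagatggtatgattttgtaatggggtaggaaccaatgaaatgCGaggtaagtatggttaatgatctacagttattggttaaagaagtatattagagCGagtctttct

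H3K4me3 at the 5′ end was more frequent in each successive expression decile. It was present at 8.01% of zero-count genes, at 21.3% of genes in decile 1, 68.5% in decile 5, 91.8% in decile 7 and 98.6% in decile 10 (2514 of 2550 genes; 95% Wilson interval 98.1 to 99.0, counting error only). H3K4me1 within 1 kb of the 5′ end followed a similar course, from 12.5% of zero-count genes and 29.7% in decile 1 to a highest share of 95.0% in decile 9 and 94.5% in decile 10 (interval 93.6 to 95.3). H3K27ac of either list was rarer and climbed mainly in the upper deciles, with 0.804% of zero-count genes, 9.11% in decile 5, 18.7% in decile 7 and 49.2% in decile 10 (interval 47.2 to 51.1). With only peaks of −log10 q of at least 5, the top-decile shares were 98.0% for H3K4me3, 19.2% for H3K4me1 and 6.98% for H3K27ac, so those of the last 2 marks depended on the peak threshold. Genes with no mark made up 86.0% of the zero-count genes, 67.0% of decile 1, 23% of decile 5 and 0.941% of decile 10. Over all ranked genes with a position, 72.4% carried H3K4me3, 72.8% H3K4me1, 19.2% H3K27ac and 21.7% none. Ranking by either RNA library alone gave 98.6% with H3K4me3 in the top decile both times, and 2121 genes were in the top decile of both libraries, of 2316 in replicate 1 and 2285 in replicate 2.

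**Figure D1:**
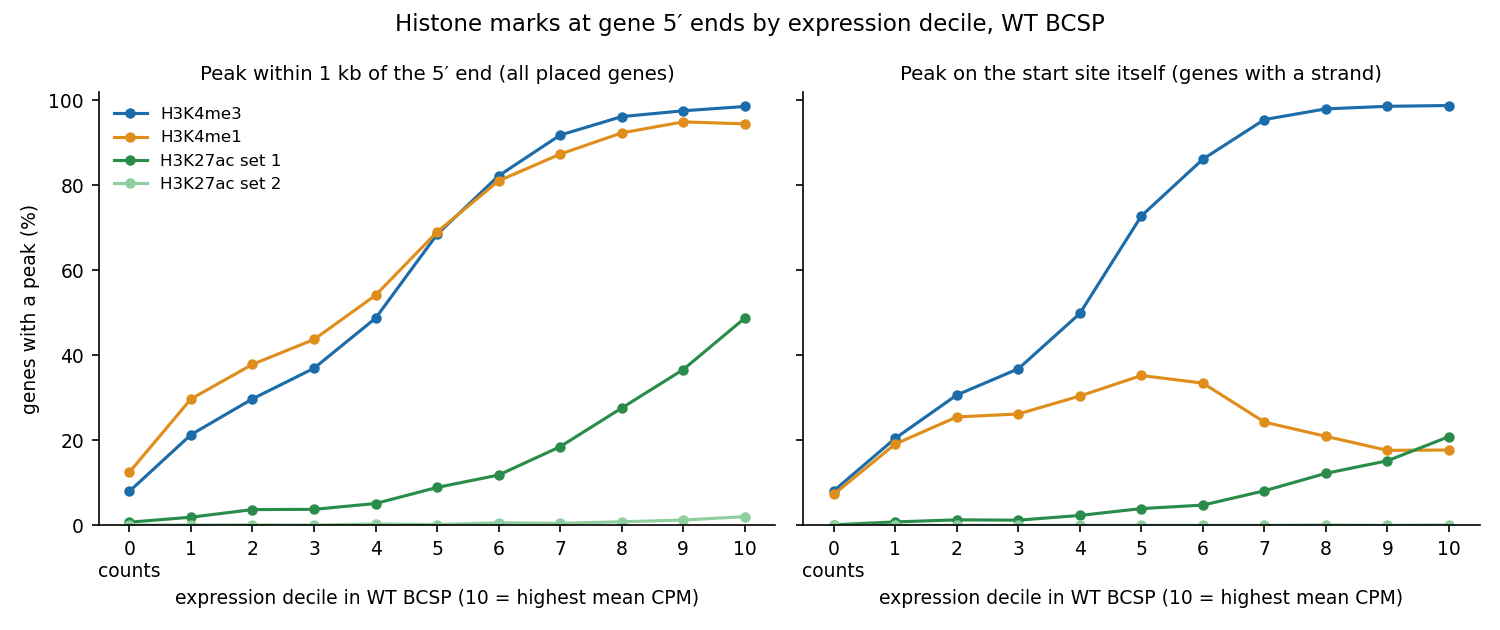
Share of genes (%) with a peak of each mark, by expression decile in WT BCSP, with zero-count genes at the left. The left panel counts peaks within 1 kb of the 5′ end over all genes with a position, and the right panel counts peaks that cover the annotated start site, over genes with a known strand. H3K4me3 reached 98.6% in decile 10 on the left, while H3K4me1 on the start itself was highest in decile 5 at 35.3%.

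The start site itself told H3K4me1 apart from H3K4me3. Among genes with a known strand, an H3K4me3 peak covered the annotated start of 8.11% of zero-count genes and 98.8% of genes in decile 10. An H3K4me1 peak covered the start of 7.28% of zero-count genes, 19.1% in decile 1 and 35.3% in decile 5, but of only 17.7% in decile 10, where 95.1% of the same genes had an H3K4me1 peak within 1 kb. Of the genes with H3K4me1 within 1 kb, the peak covered the start of 57.8% in decile 2 and of 18.7% in decile 10. The first H3K27ac list covered the start of 20.9% of genes in decile 10. Highly expressed genes thus had H3K4me3 over the start and H3K4me1 beside it, a layout that the window of 1 kb merges into 1 state.

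Taken as combinations, 1212 genes of the top decile (47.5%) carried all 3 marks and 1186 (46.5%) carried H3K4me3 and H3K4me1 without H3K27ac. The share with all 3 marks was 0.685% among zero-count genes, 1.78% in decile 1, 8.82% in decile 5 and 18.1% in decile 7. The share with H3K4me3 and H3K4me1 alone was 5.85%, 16.3%, 51.8% and 67.5% in the same classes, so that it peaked in decile 7. H3K4me1 as the only mark was most frequent in decile 3, at 13.4%, and was at 0.431% in decile 10. In the top decile, 75 genes had H3K4me3 alone, 41 had H3K4me3 with H3K27ac, 11 had H3K4me1 alone, 1 had H3K27ac with H3K4me1, 0 had H3K27ac alone and 24 had no mark. Over all ranked genes, 14 had H3K27ac with H3K4me1 and 3 had H3K27ac alone.

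**Figure D2:**
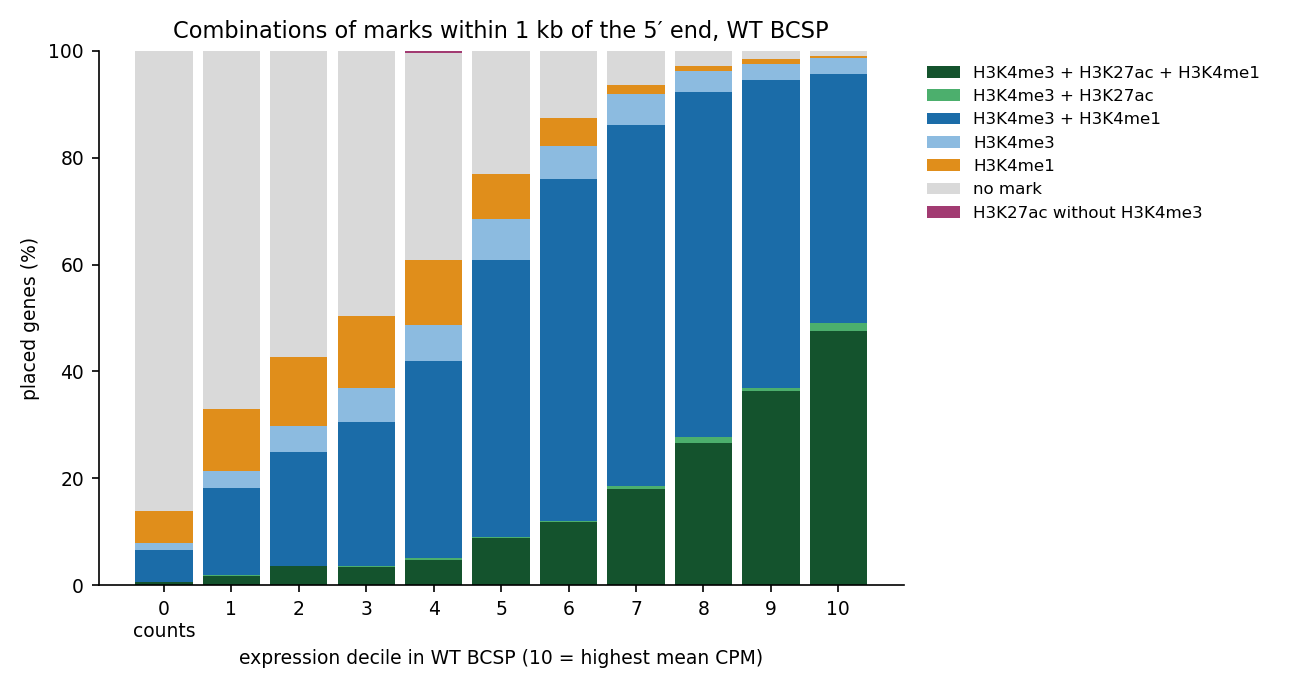
Share of genes with a position (%) in each combination of marks within 1 kb of the 5′ end, stacked, by expression decile in WT BCSP, with zero-count genes at the left. The band of genes with all 3 marks grows to 47.5% in decile 10, while the band of genes with no mark shrinks to 0.941%.

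Read the other way, genes with all 3 marks had a median of 33.8 CPM (quartiles 10.01 and 94.3, n = 3975), and the medians were 33.5 and 32.7 CPM in the 2 libraries. Genes with H3K4me3 and H3K27ac had a median of 28.6 CPM (n = 112), those with H3K4me3 and H3K4me1 8.10 CPM (quartiles 1.34 and 29.4, n = 10328) and those with H3K4me3 alone 1.72 CPM (n = 1066). Genes with H3K4me1 alone had a median of 0.219 CPM (n = 1252) and those with no mark 0.135 CPM (n = 4645). The quartiles show how wide each class was: a gene with H3K4me3 and H3K4me1 could lie in any decile.

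The strength of the H3K4me3 peak followed expression, and that of the H3K27ac peak did so little. The authors' fold enrichment is the peak's own value, and it was used only to describe peaks within a list. The strongest H3K4me3 peak at the 5′ end had a median fold of 8.91 at marked zero-count genes, 10.2 in decile 1 and 19.0 in decile 10, and a median width of 1319, 1345 and 2802 bases. Across the 15481 ranked genes with the mark, Spearman's rho between H3K4me3 fold and CPM was 0.445 with RNA replicate 1 and 0.438 with replicate 2, and 0.420 and 0.416 for width. For H3K4me1 it was 0.324 and 0.318 for fold and 0.071 and 0.070 for width over 15569 genes. For the first H3K27ac list it was 0.075 and 0.081 for fold and 0.090 and 0.088 for width over 4059 genes. These correlations are across genes of 1 ChIP library, which share its depth and are not independent replicates.

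The 2 H3K27ac lists differed in size and layout. The first held 6236 peaks in the layout of broad peaks (median 521 bases) and the second 785 peaks in that of narrow peaks (median 200 bases). Of the second list 23.8% of peaks met a peak of the first, and of the first 2.84% met one of the second. A peak of the first list lay at 48.7% of genes in the top decile and one of the second at 2.04%, so the H3K27ac shares given here are in effect those of the first list. The 100 ranked genes with a peak in both lists had a median of 53.1 CPM and 41.0% of them were in the top decile. For the 3959 genes in the first list alone these values were 33.0 CPM and 30.4%, for the 45 in the second alone 19.5 CPM and 24.4%, and for the 17291 in neither 1.85 CPM and 7.50%.

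The 10 genes with the highest CPM among those with all 3 marks were as follows. Sparc, which encodes the matrix glycoprotein osteonectin, had 13771 and 11213 CPM in replicates 1 and 2. Col1a2, a chain of type I collagen, had 5604 and 7188 CPM, and Serpinh1, the collagen chaperone HSP47, had 4084 and 5045 CPM. Col9a1 and Col9a2, chains of the cartilage collagen IX, had 4155 and 2658 CPM and 3428 and 2391 CPM. The marks of Col9a1 did not share 1 start site: its strongest H3K4me3 peak lay at chr1:24177398-24180541. Its strongest H3K4me1 and H3K27ac peaks lay further inside the gene, at chr1:24193268-24201047 and chr1:24195731-24196046. Col6a1, a chain of the pericellular collagen VI, had 3626 and 4082 CPM, and the heparan sulfate proteoglycan Sdc4 had 3871 and 3145 CPM. The other members of the 10 were Actb (cytoskeletal actin), Mest (an imprinted gene) and Hspa5 (the chaperone BiP), at 4439 and 4697, 2676 and 3164, and 2534 and 3025 CPM. Their H3K4me3 fold ran from 9.20 at Mest to 24.4 at Serpinh1. H3K4me3 peaks at these ends were broad, up to 13075 bases at Sdc4 and 9546 bases at Sparc.

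Some of the highest genes had no H3K27ac at the 5′ end, although genes in neither list had the low median given above. Col2a1 encodes collagen II, the principal fibril of cartilage, and had 32266 and 21517 CPM with H3K4me3 and H3K4me1 only. Col1a1, the partner of Col1a2 in bone matrix, had 35049 and 40162 CPM with the same 2 marks. Of 24 chondrocyte genes, 22 were in the top decile, 23 carried H3K4me3 and 24 H3K4me1, but 4 carried H3K27ac. Of 22 genes of ribosomal proteins, all were in the top decile, 22 carried H3K4me3, 19 carried H3K4me1 and 19 carried H3K27ac. The summed level of the chondrocyte list was 67841 and 44907 CPM and that of the ribosomal list 7470 and 7571 CPM, so the list with the more frequent H3K27ac was the one with fewer reads.

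Immediate early genes, transcribed within minutes of stimulation, and G2 and M phase genes show 2 other mixtures. Of 17 immediate early genes 16 were in the top decile, and 17 carried H3K4me3, 15 H3K4me1 and 5 H3K27ac. Among the highest, Junb had 2288 and 2748 CPM with all 3 marks, Fos 2116 and 1932 CPM and Egr1 2078 and 1781 CPM with H3K4me3 and H3K4me1, and Jun 1909 and 2031 CPM with H3K4me3 and H3K27ac. Of 16 G2 and M phase genes, 3 were in the top decile, all carried H3K4me3 and H3K4me1, and 6 carried H3K27ac, among them Cdk1, the mitotic kinase, at 78.1 and 119 CPM. Of 19 glycolysis genes with a position, 14 were in the top decile, 19 carried H3K4me3 and H3K4me1 and 5 H3K27ac. Ldha, which makes lactate, had all 3 marks at 966 and 986 CPM, and Eno1, the enolase, had H3K4me3 and H3K4me1 at 1192 and 1117 CPM.

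Osteoblast genes carried H3K4me3 at 12 of 16, H3K4me1 at 14 and H3K27ac at 2, with 7 in the top decile. Bglap and Bglap2, the osteocalcin genes, were the 2 with no mark, at 6.52 and 12.1 CPM and at 6.36 and 7.55 CPM, and they are near-identical copies, so their counts may be split. Dmp1, an osteocyte matrix gene, had H3K4me1 alone at 27.3 and 36.1 CPM. All 21 genes of skeletal progenitors and stroma carried H3K4me3, 20 carried H3K4me1 and 3 H3K27ac, with Col3a1 at 7235 and 7301 CPM and Dcn at 3188 and 4293 CPM as the highest. Of 8 hypertrophic chondrocyte genes, 6 were in the top decile, 6 carried H3K4me3, 7 H3K4me1 and 0 H3K27ac. All 6 tendon genes carried H3K4me3, 4 carried H3K4me1 and 0 H3K27ac. Of 14 Hox genes of the limb, 13 carried H3K4me3 and H3K4me1 and 0 were in the top decile; Hoxa10 was the highest at 24.3 and 42.0 CPM, and Hoxd12 had no mark at 0.16 and 0.17 CPM.

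Lists for other cells and tissues varied, with leukocyte genes and genes of other tissues the least marked. Endothelial genes carried H3K4me3 at 7 of 10 and H3K4me1 at 5. Schwann cell and neuron genes carried them at 7 and 8 of 10, and osteoclast genes at 4 and 6 of 8. The osteoclast list had 2 members in the top decile and a summed level of 536 and 501 CPM. Of 19 leukocyte genes, 1 carried H3K4me3 (Coro1a) and 16 had no mark, with a summed level of 19.1 and 27.5 CPM. The pan-leukocyte gene Ptprc had 0.26 and 0 CPM, where 0 counts allow up to 0.172 CPM. Of 13 erythroid genes, 6 carried H3K4me3, with a summed level of 78.1 and 115 CPM. Of 24 genes of other tissues (liver, pancreas, gut, lung and others), 4 carried H3K4me3, 17 had no mark and 10 had 0 counts. Transcription factors of other lineages differed from these: 18 of 26 carried H3K4me3 and 17 H3K4me1, although 12 had 0 counts and the median was 0.03 CPM. Pax2, Nkx2-1 and Foxa1, regulators of kidney, lung and thyroid, and endoderm, had 0 counts in both libraries with H3K4me3 and H3K4me1. Replication-dependent histone genes carried H3K4me3 and H3K4me1 at 21 of 21 with a median of 1.12 CPM; these transcripts lack a poly(A) tail, and the RNA was selected by that tail per the labels.

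**Figure D3:**
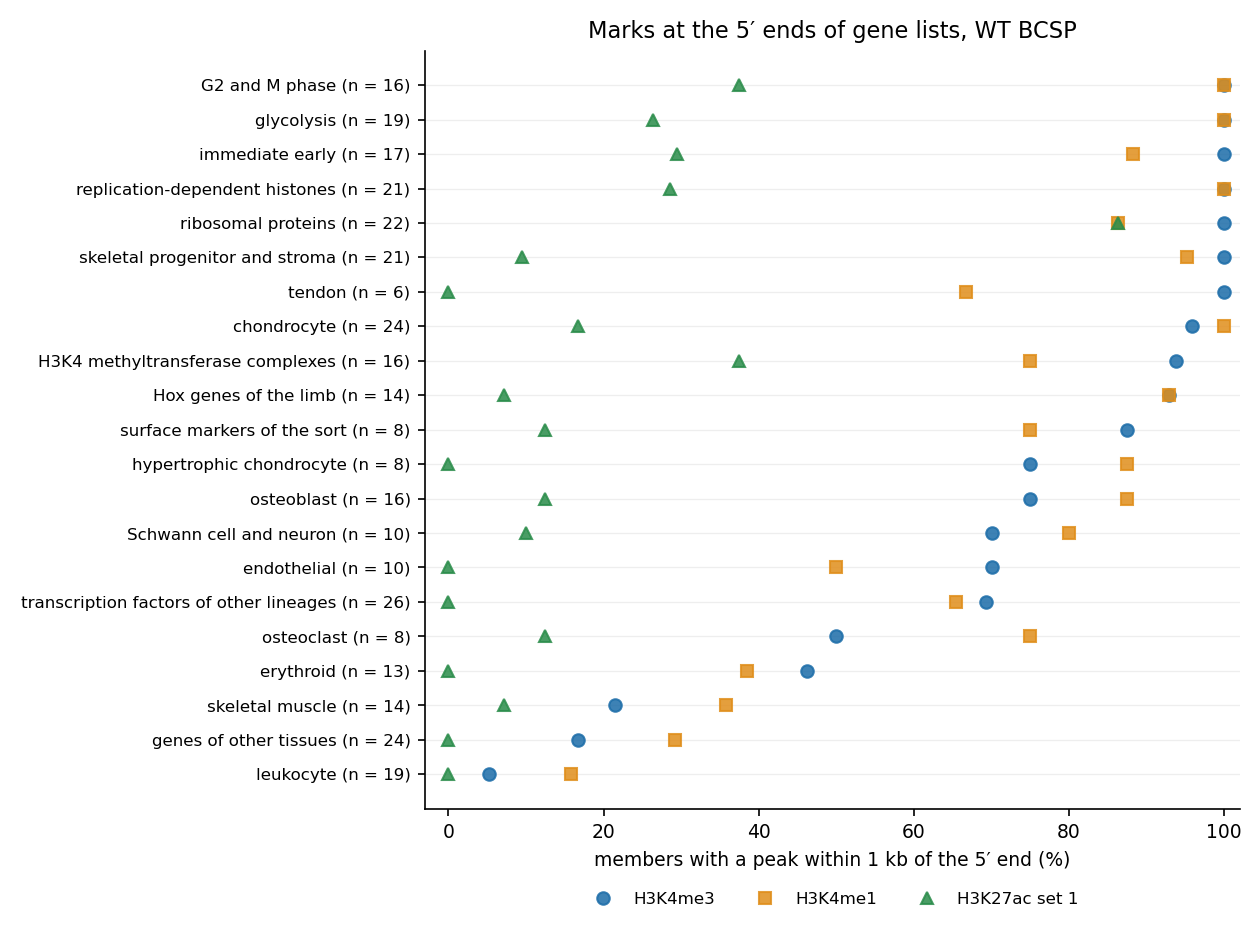
Share of each gene list (%) with a peak of H3K4me3, H3K4me1 or the first H3K27ac list within 1 kb of the 5′ end in WT BCSP; n is the number of members with a position. Ribosomal protein genes stand out by H3K27ac at 19 of 22 members, and leukocyte genes carried H3K4me3 at 1 of 19.

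Of 16 genes for subunits of the H3K4 methyltransferase complexes, 15 carried H3K4me3, 12 H3K4me1 and 6 H3K27ac, and 15 lay in deciles 6 to 10. Over the autosomal genes of those deciles, 93.5% carried H3K4me3, 91.7% H3K4me1 and 29.7% a peak of the first H3K27ac list. The H3K4me3 frequency of the subunits was thus near that of genes at like levels, and their H3K4me1 frequency was lower. Paxip1, which encodes PTIP, had 13.8 and 7.38 CPM and carried all 3 marks. Kmt2d, the catalytic MLL4 subunit, had 140 and 165 CPM with all 3 marks, and Cxxc1, a CG-binding subunit of the SET1 complexes, had 93.2 and 96.6 CPM with H3K4me3 and H3K4me1. Ash2l, a core subunit, had 56.7 and 48.8 CPM and no mark within 1 kb of the end used. Pagr1a, whose product pairs with PTIP, had 0 counts and carried H3K4me3 and H3K4me1. Its count of 0 need not mean that the transcript is absent, as described below for other coding genes.

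The top decile held 36 genes without H3K4me3, and 24 of these had no mark at all. The number of unmarked genes depended on the rule: it was 14 with a window of 2 kb, 9 with 5 kb, 8 with a peak anywhere in the gene, 49 at −log10 q of at least 5, 79 with either outer end of the gene in place of its start sites and 153 when genes were ranked by CPM per kilobase of genomic span. The 24 comprised 19 coding genes and 5 pseudogenes, among 2530 coding genes and 10 pseudogenes of that decile with a position. For 16 of the 24 a peak lay elsewhere within the gene, and it included H3K4me3 in 15, H3K4me1 in 16 and H3K27ac in 10. Ywhaz, a 14-3-3 adaptor protein and the highest of them, had 816 and 863 CPM and its nearest H3K4me3 peak lay 7967 bases from the nearer end of the gene. Cyb5r3, a cytochrome b5 reductase, had 596 and 744 CPM and its nearest H3K4me1 peak lay 1035 bases away, just outside the window. Sri, a calcium-binding protein, had 258 and 246 CPM and an H3K4me3 peak 9545 bases from its annotated start. Besides Acta1 and Fmo1, described below, a further 7 of the first 20 by CPM were of this kind with values from 75.9 to 296 CPM per library: Gas7, Asah1 (acid ceramidase), Golga7, Thumpd1, Mmadhc, Pex2 and Cdh13. The strand was not given for 16 of the 24, against 520 of the 2550 genes of the decile. For these only the outer ends of the gene were searched and no start site inside it. Of the 16, 10 had a peak elsewhere in the gene, so a marked inner start could have been missed.

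The 8 genes with no peak anywhere in the gene were the 5 pseudogenes and 3 coding genes, among them Zfp652 and Mmp13. The pseudogenes were Cd63-ps (216 and 254 CPM), Gm10123 (144 and 110), Gm7964 (115 and 124), Gm15427 (91.7 and 103) and Gm2000 (85.9 and 93.8). Reads of a processed pseudogene can come from its parent gene, and the labels do not say how shared reads were assigned, so these levels are uncertain. Of the 24 genes, 18 were also in the top decile of both pBCSP and SSC, 20 had no mark in the lists of either, and 0 had H3K4me3 there.

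**Figure D4:**
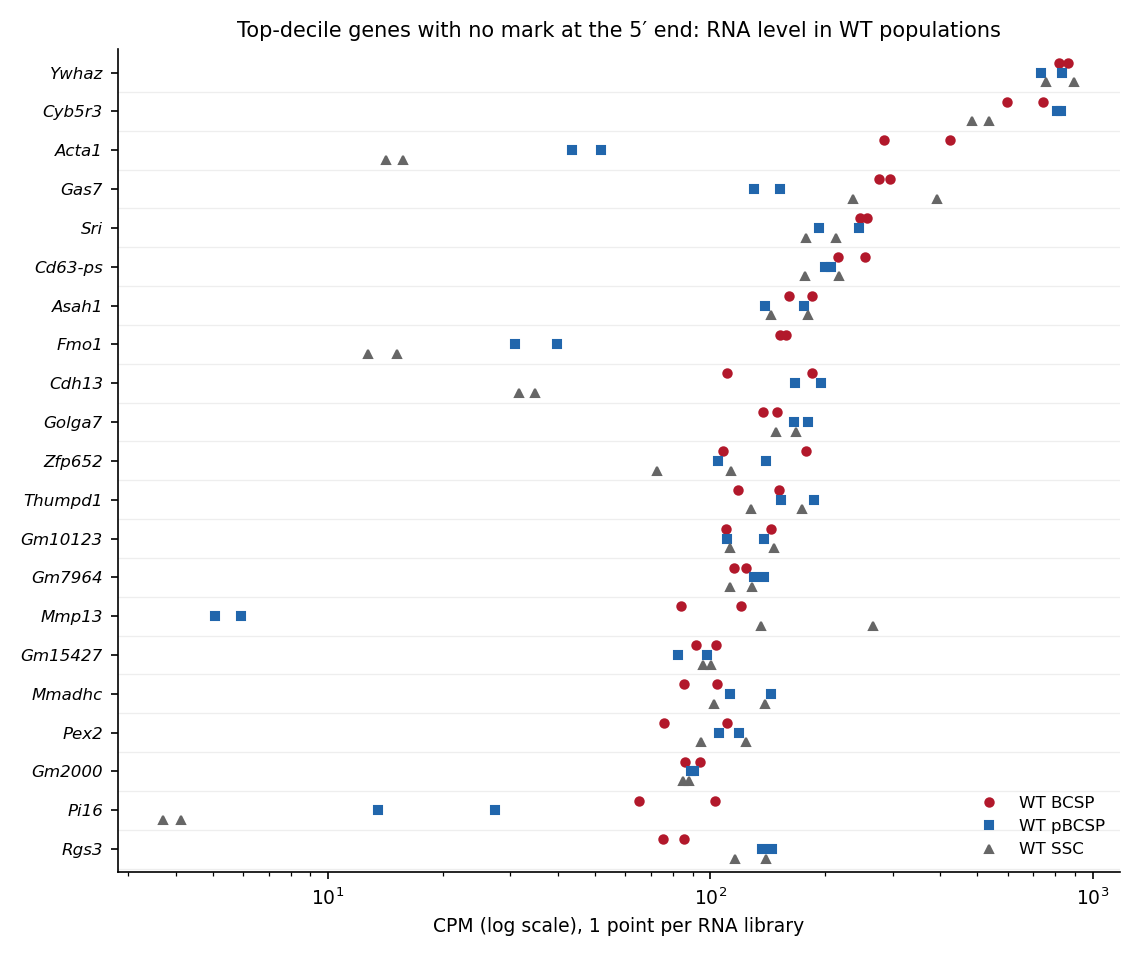
RNA level (CPM, log axis) of the genes named in the text among those of the top decile with no mark at the 5′ end, 1 point per library, in WT BCSP, WT pBCSP and WT SSC. Acta1, Fmo1 and Pi16 are highest in BCSP, Mmp13 in SSC, and Ywhaz lies between 732 and 896 CPM in all 6 libraries.

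RNA was compared between WT BCSP and the mean of WT pBCSP and WT SSC to see whether unmarked and marked genes differed between populations. Of 16264 genes tested over the 6 WT libraries, 705 passed (4.33%), 600 higher (3.69%) and 105 lower (0.646%) in BCSP, by edgeR's quasi-likelihood test with Benjamini-Hochberg adjustment. That fit held the group alone and did not pair same-numbered libraries. With the replicate number as a block, 2199 passed (13.5%), 1460 higher (8.98%) and 739 lower (4.54%). The number rested on the BCSP libraries: 329 passed without BCSP replicate 1 and 132 without replicate 2, where the remaining BCSP library is assumed to vary like the other groups. With the KO libraries in the fit 2 passed, and of the 50 called genes among the lists and members described here 1, Eng, was still called. Of the same 50, 21 held whichever library was left out, and 0 were lost in DESeq2 or with the block. In bulk samples, fewer cells of a type and less RNA per cell cannot be told apart.

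Of the 24 unmarked genes of the top decile, 4 passed (16.7%), all higher in BCSP than the mean of pBCSP and SSC (6 passed in DESeq2). They were Acta1, Fmo1, Mmp13 and Pi16. Mmp13 was above pBCSP but below SSC, as given below. The median log2 difference of the 24 was 0.06 against -0.01 over all genes tested. In the whole top decile 9.73% passed, 204 genes higher and 44 lower. The decile was chosen by level in the same BCSP libraries, so it leans towards genes higher in BCSP. With the block 6 of the 24 passed, the others being Cdh13, higher, and Rgs3, lower. Pi16 and Rgs3 fall outside the first 20 by CPM and were named after their values had been seen.

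Acta1, the actin of skeletal muscle fibres (ENSMUSG00000031972, chr8:123891758-123894775, minus strand), had 285 and 423 CPM in BCSP, 43.4 and 51.9 in pBCSP and 14.2 and 15.7 in SSC. The BCSP libraries were above all others, with a log2 difference of 3.74 ± 0.20 (SE; adjusted p = 0.000222). Its nearest H3K4me1 peak lay 2791 bases and its nearest H3K4me3 peak 34390 bases from the start, and its promoter, printed above, holds TATAAA. Of 14 skeletal muscle genes, 3 carried H3K4me3, 5 H3K4me1 and 1 H3K27ac, and 9 had no mark. Of 11 tested, 6 were higher in BCSP and 0 lower, with a median log2 difference of 2.69 (10 passed with the block). The summed level of the list was 470 and 696 CPM in BCSP, 108 and 99.5 in pBCSP and 81.3 and 48.2 in SSC. Ckm, the muscle creatine kinase, had 26.5 and 40.8 CPM and no mark, Mylpf, a fast myosin light chain, had 41.5 and 60.2 CPM with H3K4me3 and H3K4me1, and Tnnc2 was at 0 in all 6 libraries. The part of muscle cells in these values was not tested.

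The skeletal lists are read beside the 4.33% called over all genes tested, or 13.5% with the block. Of 20 tested genes of progenitors and stroma, 10 were called (12 with the block), 8 higher and 2 lower in BCSP, and all 21 members carried H3K4me3. Postn, a matricellular protein of periosteum, had a log2 difference of 1.51 ± 0.14 (adjusted p = 0.0013) and Osr1, a transcription factor of limb connective tissue, one of 2.13 (adjusted p = 0.00219). Of 16 osteoblast genes 5 were higher and 0 lower (31.2%; 7 with the block), with a median log2 difference of 0.72. Col1a1 differed by 1.25 ± 0.12 (adjusted p = 0.00154). The unmarked Bglap differed by 3.03 ± 0.39 (adjusted p = 0.00445) and the unmarked Bglap2 by 2.53 ± 0.32 (adjusted p = 0.00405). Neither of these calls of unmarked genes held without BCSP replicate 2. Of 24 chondrocyte genes 0 were higher and 1 lower without the block, a share of 4.17% near that over all genes. With the block 18 of the 24 passed, far above the 13.5% over all genes, so the reading of this list depended on the fit. The median log2 difference was -0.59. Sox9, the cartilage regulator, differed by -1.09 ± 0.29 (adjusted p = 0.0825, and 0.000124 with the block). Of 6 tendon genes 3 were higher and 1 lower, with a median log2 difference of 1.14. The summed level of the list went the other way, at 5151 and 3896 CPM in BCSP, 8218 and 6710 in pBCSP and 6504 and 6187 in SSC. Thbs4, a thrombospondin of tendon with H3K4me3 alone, had 509 and 479 CPM in BCSP (2.47 ± 0.18, adjusted p = 0.00047). The median difference of the 22 ribosomal protein genes was 0.01.

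Mmp13, the collagenase of hypertrophic chondrocytes and osteoblasts (ENSMUSG00000050578, chr9:7272514-7283333, plus strand), had 120 and 84.0 CPM in BCSP, 5.07 and 5.92 in pBCSP and 136 and 266 in SSC. BCSP was thus far above pBCSP and below SSC, and the log2 difference from their mean was 1.63 ± 0.25 (adjusted p = 0.00983). The call was lost without BCSP replicate 1 (0.0852) or replicate 2 (0.0549). Its nearest H3K4me1 peak lay 65664 bases and its nearest H3K4me3 peak 86398 bases from the start. Its promoter held 1 CG in 300 bases.

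Fmo1, a flavin-containing monooxygenase, had 152 and 158 CPM in BCSP, 30.8 and 39.8 in pBCSP and 12.7 and 15.2 in SSC (log2 2.81 ± 0.17, adjusted p = 0.00031). Pi16, a marker of adventitial fibroblasts, had 65.0 and 103 CPM in BCSP, 13.5 and 27.3 in pBCSP and 3.70 and 4.13 in SSC (3.24 ± 0.30, adjusted p = 0.0013). In both genes the order BCSP, pBCSP, SSC held without overlap, and both had H3K4me3 and H3K4me1 elsewhere in the gene. The calls of Acta1, Fmo1 and Pi16 held when any 1 of the 6 libraries was left out. Cdh13, a cadherin without a cytoplasmic tail, had 111 and 184 CPM in BCSP, 166 and 195 in pBCSP and 31.5 and 34.8 in SSC, with a log2 difference of 0.94 ± 0.22 (adjusted p = 0.0563, and 0.00198 with the block).

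H3K4me1 was the only mark at 11 genes of the top decile. Ibsp, the bone sialoprotein of mineralizing matrix (ENSMUSG00000029306, chr5:104299287-104311472), had 1004 and 634 CPM in BCSP, 46.8 and 12.1 in pBCSP and 1093 and 772 in SSC. It was at the level of SSC and above pBCSP in both libraries, and the log2 difference of 2.29 ± 0.45 passed (adjusted p = 0.0297) but not without BCSP replicate 1 (0.177), BCSP replicate 2 (0.118) or SSC replicate 2. Matn1, a cartilage matrix protein, had 479 and 388 CPM in BCSP, 438 and 458 in pBCSP and 1051 and 614 in SSC (log2 -0.51 ± 0.25, adjusted p = 0.392), and its end carried H3K4me3 as well as H3K4me1 in SSC. The next named here were Angptl7 (an angiopoietin-like secreted protein, 241 and 171 CPM) and Tm4sf1 (a tetraspan membrane protein, 209 and 172 CPM). Angptl7 differed by 1.60 ± 0.43 (adjusted p = 0.0922, and 2.8e-05 with the block). The single gene with H3K27ac and H3K4me1 but no H3K4me3 was Synpo, an actin-associated protein, at 101 and 53.5 CPM.

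The share of genes called differed between combinations of the top decile, as a count. Of the 1212 genes with all 3 marks, 38 were called (3.14%; 28 higher and 10 lower), and of the 1186 with H3K4me3 and H3K4me1, 192 were called (16.2%; 160 higher and 32 lower). With the block these were 161 (13.3%) and 384 (32.4%). The share in the whole top decile was 9.73% (248 of 2550), beside 4.33% over all genes tested. That decile was chosen by level in the same BCSP libraries, so its calls of higher are not independent of the choice. Among the 75 genes with H3K4me3 alone 9 were called, and among the 11 with H3K4me1 alone 3. No test was made of these shares, since genes of a class are not independent samples.

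Genes with H3K4me3 at the 5′ end in BCSP and in neither other WT population numbered 248. Of these, 88 had 0 counts, 99 lay in deciles 1 to 5 and 61 in deciles 6 to 10, 8 of them in decile 10. Their H3K4me3 peaks were weak, with a median fold of 3.65 against 16.6 over all marked ends and a median −log10 q of 2.55 against 38.3. Of 94 tested, 30 were called (31.9%; 29 higher and 1 lower; median log2 1.12; 37 with the block), beside 4.31% of the 13243 tested genes with H3K4me3 in all 3 populations. A gene low in the other populations could pass the count filter only through the BCSP libraries, which favours calls of higher. The share and median of the 94 are therefore given as description only. Of 24 tested genes with H3K4me3 in pBCSP and SSC but not BCSP, 0 were called in edgeR and 0 in DESeq2, 4 had an unadjusted p under 0.05 and 4 were called with the block. Each population had 1 H3K4me3 list, and differences in depth between the lists were not tested.

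Named after their values had been seen, the highest of these 248 included 2 chemokines and a progenitor marker. Ccl2, which recruits monocytes, had 112 and 224 CPM in BCSP, 15.4 and 21.1 in pBCSP and 8.35 and 11.7 in SSC (log2 3.65 ± 0.29, adjusted p = 0.000618). Ccl7, its neighbour, had 97.4 and 345 CPM in BCSP, 12.3 and 39.0 in pBCSP and 5.80 and 5.16 in SSC (4.23 ± 0.54, adjusted p = 0.00444). Ly6a, the stem cell antigen Sca-1, had 76.3 and 93.8 CPM in BCSP, 24.3 and 37.0 in pBCSP and 4.75 and 4.13 in SSC (2.87 ± 0.23, adjusted p = 0.000616). In all 3 the BCSP libraries were above the other 4, and the calls held without any 1 library. Col10a1, the collagen of hypertrophic cartilage, had 112 and 53.9 CPM in BCSP, 0.18 and 0.11 in pBCSP and 191 and 15.9 in SSC (4.34 ± 0.93, adjusted p = 0.0407), with SSC values on both sides of BCSP, and its call was lost without BCSP replicate 1 (0.178) or 2 (0.132) or pBCSP replicate 2. Col12a1, a fibril-associated collagen and the highest of the 248, did not differ past the threshold, at 242 and 208 CPM in BCSP, 264 and 292 in pBCSP and 182 and 243 in SSC (log2 -0.10, adjusted p = 0.847).

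Promoters with H3K4me3 held more CG dinucleotides, by median, than those without it in each expression class. Over the 300 bases from 250 before to 50 after the start, the 20864 genes with a RefSeq promoter held a median of 11 CG dinucleotides, and 13.3% held TATAAA on either strand. The median number of CG was 2 at zero-count genes, 4 in decile 1, 13 in decile 5, 21 in deciles 7 and 8 and 22 in deciles 9 and 10. In the top decile, the 2017 promoters with H3K4me3 held a median of 22 CG (quartiles 15 and 29) and the 13 without it a median of 4 (quartiles 1 and 5). TATAAA was in 8.73% of the 2017 and in 5 of the 13. In deciles 6 to 10 the medians were 22 CG with H3K4me3 (n = 9389) and 4 without (n = 297), in deciles 1 to 5 they were 16 with (n = 2680) and 4 without (n = 2496), and among zero-count genes 13 with (n = 647) and 2 without (n = 5355). Single genes departed from the medians: in the sequences above Sparc carried all 3 marks with 4 CG in 300 bases, Ubb held 33, and the unmarked Acta1 held 12. A match to TATAAA is a description of the letters in this window.

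**Figure D5:**
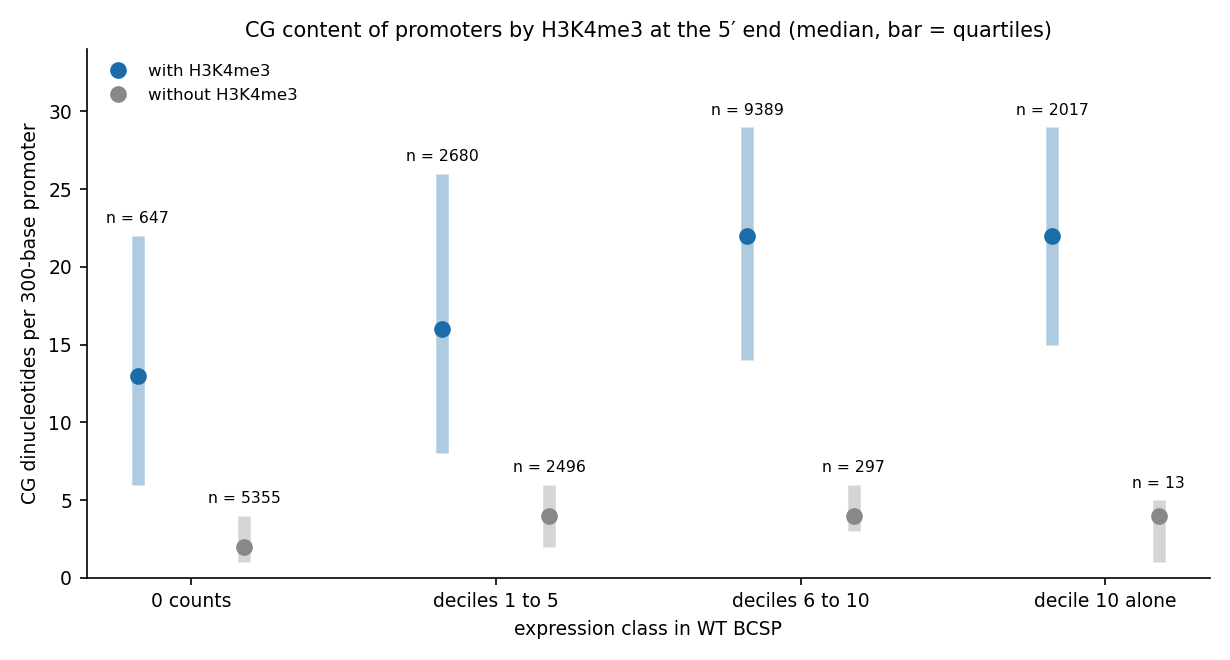
Number of CG dinucleotides in the 300-base promoter by expression class in WT BCSP, for genes with H3K4me3 at the 5′ end and genes without; points are medians, bars span the quartiles and n is the number of promoters. With H3K4me3 the medians run from 13 to 22, and without it from 2 to 4.

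H3K4me3 at genes with 0 counts lay at 1356 ends. Per gene type it was present at 402 of 2433 long noncoding RNAs (16.5%), 190 of 1044 miRNAs (18.2%), 425 of 4837 coding genes (8.79%) and 165 of 6290 pseudogenes (2.62%). Position went with part of it: 338 of the 1356 (24.9%) lay within 2 kb of the end of a gene of deciles 6 to 10. For zero-count genes without H3K4me3 it was 132 of 15569 (0.848%). Among genes with H3K4me3 the share was 29.9% in decile 1, 23.2% in decile 5 and 17.9% in decile 10, so it was not particular to zero-count genes. With a window of 1 kb, a peak can count for neighbouring genes as well. For coding genes with 0 counts, 68 of 425 with H3K4me3 (16%) overlapped a gene of deciles 6 to 10 or lay within 2 kb of it, against 96 of 4412 without (2.18%). This left 357 coding genes with H3K4me3 and no such neighbour. Among the 15 of these with the strongest H3K4me3, named after their values were seen, Raver1, Pdcd2, Mrpl53 and Sco2, which many cell types use, were listed at 0 in all 6 WT libraries, and Duxbl2 and Duxbl3 are copies of one another, so a count of 0 need not mean that the transcript is absent. For miRNAs the values were 134 of 190 (70.5%) with H3K4me3 and 434 of 854 (50.8%) without.

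The 10 zero-count genes with the strongest H3K4me3 were small RNAs and predicted genes. Gm2436 had a fold of 29.9, Mirlet7e and Mir125a shared a peak of fold 28.0, and Mir125b-1 had 27.8. Mir214 and Mir199a-2 lay under 1 peak of 9632 bases with fold 27.6, and Mir1894 had 27.4. Gm23296 and 1700031P21Rik shared a peak of 26.5, and Gm2446 had 26.5. All but Gm2436, Gm23296 and 1700031P21Rik overlapped a gene of deciles 6 to 10. Mature miRNAs are not captured in poly(A)-selected libraries, so their 0 counts say nothing of their level.

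Genes on the X chromosome had an H3K4me3 share close to that of autosomal genes and lower shares of the other marks. In the top decile, 77 of 78 X genes (98.7%) and 2436 of 2471 autosomal genes (98.6%) carried H3K4me3. H3K4me1 was at 47 of 78 X genes (60.3%) and 2363 of 2471 autosomal genes (95.6%), and the lowest share of an autosome was 91.8% (chromosome 18). The first H3K27ac list was at 11 X genes (14.1%) and 1232 autosomal genes (49.9%), and H3K27ac of either list on the autosomes ran from 34.3% (chromosome 13) to 63.2% (chromosome 3). Median levels were 163 CPM on X and 141 CPM on autosomes. The median H3K4me3 fold was 14.5 on X and 19.1 on autosomes, and the median H3K4me1 fold 3.41 and 4.17. The H3K4me1 share was also lower on X in pBCSP, at 76.3% against 96.7%, and in SSC, at 16.7% against 79.2%.

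Of the 75 genes of the top decile with H3K4me3 alone, 24 were on X, 50 on autosomes and 1 on Y. Tnmd, the tendon membrane protein tenomodulin (ENSMUSG00000031250, chrX:133851008-133865577), had 874 and 634 CPM in BCSP, 234 and 194 in pBCSP and 79.1 and 66.5 in SSC (log2 2.59 ± 0.19, adjusted p = 0.000511, held without any 1 library). Rpl10 and Rps4x were the ribosomal protein genes on X in the list and had H3K4me3 alone at 282 and 258 CPM and at 227 and 221 CPM. Gpc3, a glypican that restrains growth and named after its values were seen, had 1575 and 1782 CPM with H3K4me3 alone. The Y-linked Ddx3y had 85.0 and 148 CPM in BCSP replicates 1 and 2, beside the Xist values given above. The sexes of the mice behind the ChIP libraries are not given in the labels, and their part in the X values was not tested. The lists held 19 H3K4me3 peaks on Y. In BCSP, H3K4me3 lay at the end of Xist with a fold of 17.4. It also lay at the Y-linked Kdm5d, Eif2s3y, Uty and Ddx3y, with folds from 5.49 to 6.47.

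In each of the other WT populations the top decile of its own RNA had a like H3K4me3 share. It was 98.6% in BCSP, 98.4% in pBCSP and 98.5% in SSC, and 24, 22 and 26 genes had no mark. H3K4me1 was at 94.5%, 96.1% and 77.3%, the first H3K27ac list at 48.7%, 44.0% and 18.4%, and the second at 2.04%, 19.8% and 0.77%. The lists held 113313, 120792 and 75277 H3K4me1 peaks, 6236, 6879 and 1828 peaks in the first H3K27ac list and 785, 3811 and 137 in the second, fewest in SSC each time. With 1 list per mark and set, these shares have no replicate check, and the populations shared 2245 (pBCSP) and 2247 (SSC) genes of the top decile with BCSP.

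The RNA libraries held 19337996 and 17479990 counts in BCSP and 15495915 to 22670899 over all 6 WT libraries, and 0 counts allow up to 0.155 and 0.172 CPM in the BCSP libraries (3 counts, counting error only). The labels do not list the surface antigens of the sort, so levels were read against the published scheme. Itgav and Eng, whose proteins mark BCSP, had 71.8 and 62.6 CPM and 176 and 129 CPM, and Eng was higher than in the other WT populations (29.1 and 35.1 CPM in pBCSP, 26.7 and 27.1 CPM in SSC; log2 2.38 ± 0.18, adjusted p = 0.000561). Thy1, absent in that scheme, had 0.21 and 0.17 CPM with H3K4me3 and H3K4me1, and Enpep 5.22 and 3.20 CPM with both marks. Tek, also absent in the scheme, had 11.1 and 10.2 CPM in BCSP, 4.37 and 5.75 in pBCSP and 0.44 and 0.58 in SSC (2.73 ± 0.29, adjusted p = 0.00224). The 10 endothelial genes, with 1 higher and 0 lower of 10 tested (2 passed with the block), summed to 53.3 and 63.8 CPM in BCSP, 67.6 and 82.1 in pBCSP and 14.0 and 21.7 in SSC. The 10 Schwann cell and neuron genes, of which 7 carried H3K4me3, summed to 194 and 721 CPM in BCSP, 88.3 and 147 in pBCSP and 1346 and 2114 in SSC, with their defining gene Sox10 at 2.28 and 9.95 CPM in BCSP. The part of endothelial or Schwann cells in the values of BCSP was not tested.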

How the data were processed

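RNA and ChIP of WT BCSP were used as deposited: whole-number read counts per gene from poly(A)-selected RNA, and peak lists from MNase-digested chromatin. Per the submitters' processing notes the tools were MACS2 2.2.6, SAMtools 1.9, featureCounts 2.0.1, Bowtie2 2.3.5.1 and Trim Galore 0.6.6, with GRCm38; the sources used here do not give their settings. The fold enrichment ratio and the −log10 q of each peak are the authors' deposited values.

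From these, CPM was computed per library. Gene positions came from RefSeq (GRCm38.p6), matched by symbol for 37805 genes and by an older symbol for 515; where strand was not given, both ends of a gene were searched. With a strand, the 5′ end took in every RefSeq start site and the outer boundary. Without one, only the outer ends were searched and no start site inside the gene. Mitochondrial genes were left out. RNA was tested over the 6 WT libraries with edgeR 4.0.16 (quasi-likelihood, TMM, filterByExpr, Benjamini-Hochberg, threshold 0.05; R 4.3.3), with DESeq2 1.42.0 as an alternative; the procedure was tested on simulated data. Peaks were placed with Python 3.11.15 and pandas 2.3.3. Same-numbered libraries deviated together (r = 0.348 for BCSP and pBCSP, 0.310 for BCSP and SSC, 0.376 for pBCSP and SSC, over 16264 genes), so the numbers were taken to pair them. The main fit held the group alone and did not use this pairing. It entered only in the alternative fit with the replicate block. SE and adjusted p-values are those of the main fit unless another is named.

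The members and gene lists were chosen with earlier results of these data known. Genes were named by rule: the 20 highest unmarked genes of the top decile, the 5 highest in each combination without H3K4me3, the 10 zero-count genes with the strongest H3K4me3, the 10 highest with all 3 marks, and from each list the highest 4, those with an uncommon mark state and the surface markers. Some genes that met the rule are not reported here. Other genes are said to be chosen after their values were seen.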

Additional observations from a re-analysis of the deposited data

How the results depend on the processing

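Of the top-decile shares, H3K4me3 was at 98.6% and was 99.1% with a window of 5 kb, 99.5% with a peak anywhere in the gene, 95.3% at either end, 98.0% at −log10 q of at least 5 and 91.8% with CPM per kilobase of genomic span, introns included. H3K27ac, at 49.2%, was 46.4%, 51.3% and 54.0% with windows of 500 bases, 2 kb and 5 kb, 59.1% anywhere in the gene, 46.2% at either end, 6.98% at −log10 q of at least 5, 51.6% with at least 10 counts, 44.0% per kilobase, 52.1% for coding genes and 1.61% in both sets, and 2.04 to 49.8% with 1 H3K27ac set or 1 RNA library left out. H3K4me1, at 94.5%, was 70.2%, 98.5% and 99.1% with the 3 windows, 99.1% anywhere, 92.2% at either end, 19.2% at −log10 q of at least 5, 89.7% with an overlap of 200 bases and 88.4% per kilobase. The 24 unmarked genes became 14 and 9 with 2 and 5 kb, 8 anywhere, 79 at either end and 49 at the stricter q. Where genes were ranked anew, the top decile itself changed. It then held 15 unmarked of 1740 genes with at least 10 counts, 153 of 2138 per kilobase and 12 of 1646 among coding genes. Chosen after seeing the data, genes with a strand gave 99.4% H3K4me3 and 8 unmarked, and outer boundaries gave 95.0%, 45.1%, 90.5% and 89. The 705 RNA calls became 1164 with DESeq2, 1599 without a filter, 2199 with the replicate block, 2 with all 12 libraries and 132 to 723 with 1 library left out. The replicate block ended none of the 50 calls; it added calls among genes named without one, such as Sparc (adjusted p = 0.00315, and 0.107 without it). The cause of these changes was not tested. Depth and 1 list per mark limit the shares.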
